A study of Mus musculus with 37 samples.

Results

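Femoral bone marrow of mice that had gone through 10 social defeats was compared, gene by gene, with marrow of mice that were never defeated. The 8 libraries were taken by their labels from the 37 of the series: the 5 marrow libraries with 10 defeats and no rest afterwards (D5, D6, D7, D9 and D10) and the 3 marrow controls (C1, C2 and C4). Social defeat, a model of psychosocial stress in which a larger, hostile mouse subdues the test mouse, was given once per day. All mice had the wild-type genotype and the C57BL/6N strain; age and sex were not given in the sources used here. The series also held marrow after 1 and 4 defeats and after 10 defeats with 1 week of rest, and spleen, and its title names lipid mediators and immune gene expression. Marrow was flushed from the femur and its polyadenylated RNA was sequenced without sorting, so each value covers all cell types of the flush, and fewer cells of a type cannot be told from less RNA per cell.

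Bone marrow makes red cells, platelets, granulocytes, monocytes and B lymphocytes from shared stem cells. Neutrophil precursors fill their granules in order, first with the proteases of primary granules and later with the iron-binding and antimicrobial proteins of secondary granules, whereas B cell precursors depend on interleukin 7 and on stromal cells that make the chemokine Cxcl12. Repeated social defeat is known for a shift of marrow output towards neutrophils and monocytes, with sympathetic nerve signals among its known drivers.

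All 8 libraries held haemoglobin genes and the primary granule genes of neutrophil precursors, which mark marrow. The estimated depth was 10600000 to 22100000 reads in controls and 6560000 to 20000000 after 10 defeats. Haemoglobin genes held 38.7% to 44.3% of the values in controls and 11.1% to 26.8% after 10 defeats. Library D6 had the lowest haemoglobin share and stood apart on the first principal component of the 19 marrow libraries, which held 43.1% of the variance: D6 lay at -62.7, the other 4 libraries with 10 defeats lay between -32.7 and -19.1 and the controls between 29.3 and 36.4. Of 66 gene lists with at least 5 genes tested, D6 was the library farthest from the controls in 36. Values are abundances on the authors' scale and are listed in the order C1, C2, C4 and D5, D6, D7, D9, D10. Each change is the log2 difference of value + 1 ± its standard error, a scale that shrinks the changes of low genes, and a call is a limma p below 0.05 after Benjamini-Hochberg adjustment over all 12442 genes tested.

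Of these genes 5694, or 45.8%, were called: 2177 (17.5%) were higher and 3517 (28.3%) lower after 10 defeats, and the median over all genes was -0.13. Without control C4 1593 were higher and 2199 lower, and without D6 1873 and 2917. Without D6 the medians of 4 of the lists in which it stood farthest out were 0.84 for primary and 1.12 for secondary granule genes, -0.77 for red cell membrane genes and -2.38 for mature B receptor genes. Which direction held the majority depended on the scaling. After quantile normalization 2763 genes were called higher and 2298 lower, and after median-ratio rescaling the numbers were 2775 and 2660. With totals made equal after removal of haemoglobin genes the median of all genes moved to -0.53, with 605 higher and 7912 lower. The share of all genes called, 17.5% upwards and 28.3% downwards, is the background against which the counts of each list below stand.

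**Figure D1:**
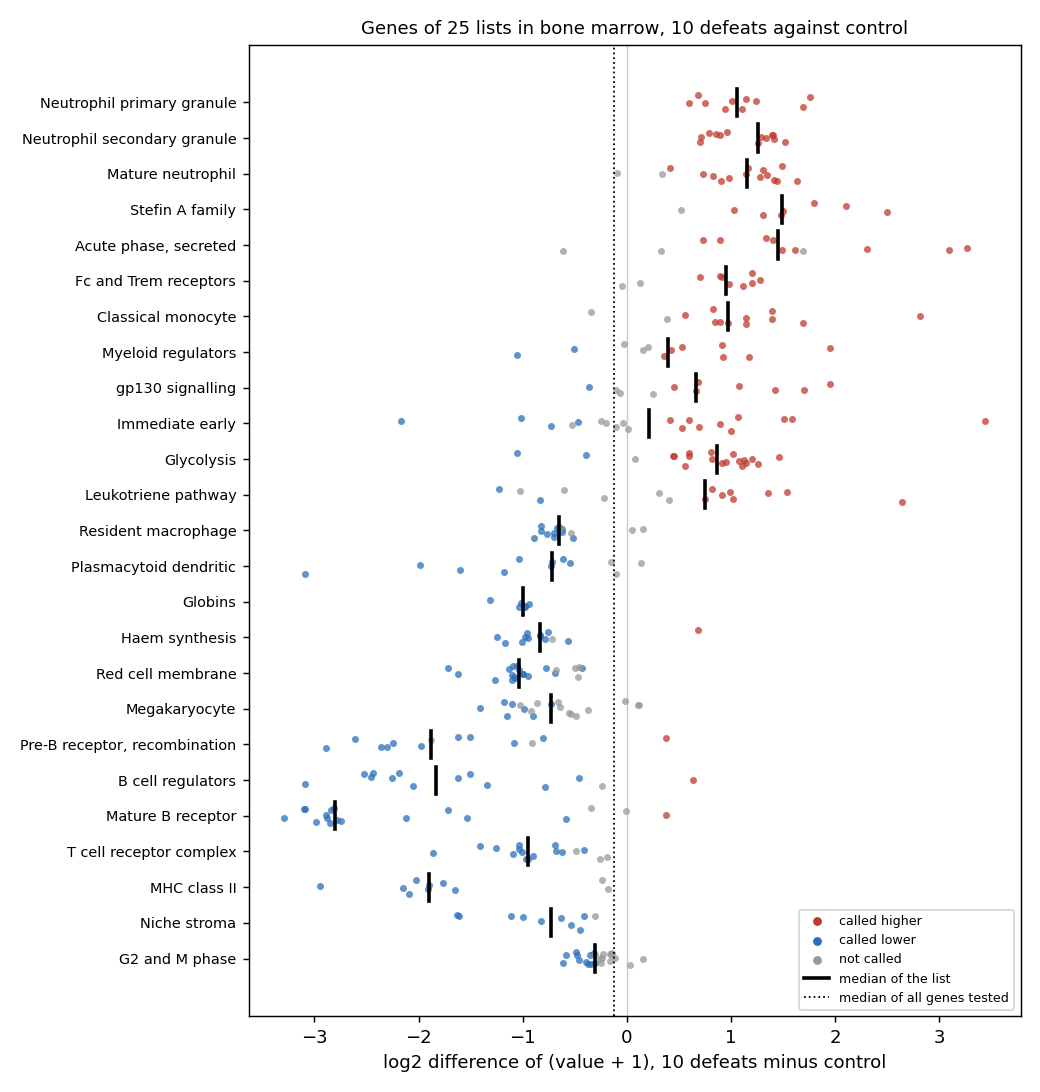
Each point is a gene of 1 of 25 lists (rows), placed by its log2 difference of value + 1 between 10 defeats and control; red and blue points passed the limma test, thick bars are list medians and the dotted line is the median of all genes tested (-0.13). Primary granule, mature neutrophil and secondary granule lists lie to the right, with medians of 1.06, 1.15 and 1.26, and mature B receptor genes lie farthest to the left with a median of -2.80.

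Neutrophil granule genes rose throughout. All 10 primary granule genes rose, with a median of 1.06, and all 13 secondary granule genes, with a median of 1.26. The groups did not overlap in 9 of the 10 and in all 13, against 19.4% of all genes apart in this direction. Prtn3 encodes proteinase 3, a serine protease of primary granules (chromosome 10, 79874476 to 79883174, GRCm38). Its values were 349.7, 316 and 282 in controls and 965, 1915, 879, 1014 and 843 after 10 defeats, a rise of 1.76 ± 0.24 (SE, adjusted p = 0.000125). Elane, the neighbouring gene for neutrophil elastase, went from 449, 379 and 346 to 865, 1552, 724, 686 and 621. The values of both genes were highest in D6 and the other 4 libraries were also above every control. Ctsc, the protease that activates these enzymes, rose by 1.69 ± 0.24, and Mpo, myeloperoxidase, by 0.75 ± 0.21 (adjusted p = 0.00879). The call for Mpo was lost with quantile normalization (0.35) and with equal totals without haemoglobin (0.26), and 6 of the 10 primary granule genes were called under the latter scaling. Of the 13 secondary granule genes 9 were called with quantile normalization (median 0.51) and 10 with equal totals without haemoglobin (0.77). Ngp and Mmp8 lost their calls with quantile normalization (0.31 and 0.26), and Mmp8 also with equal totals without haemoglobin (0.22).

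Promoter windows of RefSeq genes (250 bases before to 50 after the start, GRCm38.p6) were searched on both strands for 7 motifs in 11 of the lists. The motifs were GAGGAAGT for PU.1, TTGCNNAA for C/EBP proteins, the palindromic EBF site, AGATAA for GATA factors, TGANTCA for AP-1, TGACGTCA for cAMP response and the serum response element (CArG box). GAGGAAGT was present in 4 of the 8 primary granule genes with a window (Mpo, Elane, Prtn3 and Ctsc), against 3.69% of all 27025 genes with windows. TTGCNNAA was present in 6 of 11 secondary granule genes (Ltf, Lcn2, Ngp, Mmp8, Fcnb and Anxa1), against 12.2% of all genes. Among tested genes with a window the shares were 4.07% for GAGGAAGT and 10.5% for TTGCNNAA. Neither motif was confined to 1 class: GAGGAAGT was also in 3 of the 11 secondary granule genes and TTGCNNAA in 2 of the 8 primary granule genes. Among the 9 classical monocyte genes 4 held GAGGAAGT and none TTGCNNAA. The EBF site was found in 1 of 14 mature B receptor genes and 0 of 11 pre-B genes against 1.06% of all genes. AGATAA was in 3 of 9 erythroid regulators, 3 of 11 red cell membrane genes and 2 of 10 haem synthesis genes, against 12.7% of all genes. Of 16 immediate early genes 1 held the CArG box, 2 TGACGTCA and 0 TGANTCA. A match says only that these letters are present. The 250 bases before the start of 2 genes of each granule class follow, since those genes rose together; capitals mark GAGGAAGT in Prtn3 (chr10:79879417-79879666, plus strand) and Elane (chr10:79886062-79886311, plus strand), and TTGCNNAA or its reverse complement in Ltf (chr9:111019042-111019291, plus strand) and Lcn2 (chr2:32387740-32387989, minus strand).
Prtn3: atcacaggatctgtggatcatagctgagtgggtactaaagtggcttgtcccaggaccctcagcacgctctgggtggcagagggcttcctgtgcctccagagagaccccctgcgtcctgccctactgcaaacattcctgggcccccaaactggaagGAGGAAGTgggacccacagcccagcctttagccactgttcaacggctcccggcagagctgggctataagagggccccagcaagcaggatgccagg
Elane: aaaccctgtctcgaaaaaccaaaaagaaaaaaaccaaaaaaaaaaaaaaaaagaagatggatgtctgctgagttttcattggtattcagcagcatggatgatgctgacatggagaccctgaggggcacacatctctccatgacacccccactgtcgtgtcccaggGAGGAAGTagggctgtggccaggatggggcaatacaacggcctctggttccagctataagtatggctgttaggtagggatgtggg
Ltf: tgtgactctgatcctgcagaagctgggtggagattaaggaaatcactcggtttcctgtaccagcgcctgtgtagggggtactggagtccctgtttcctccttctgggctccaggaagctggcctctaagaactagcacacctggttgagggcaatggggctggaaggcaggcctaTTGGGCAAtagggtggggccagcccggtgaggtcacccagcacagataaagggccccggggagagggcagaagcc
Lcn2: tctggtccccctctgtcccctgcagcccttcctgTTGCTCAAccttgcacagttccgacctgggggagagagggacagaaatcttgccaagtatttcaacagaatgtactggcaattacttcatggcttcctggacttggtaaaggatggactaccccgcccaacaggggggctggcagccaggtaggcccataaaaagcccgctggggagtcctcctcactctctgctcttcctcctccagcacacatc
The matches began 95 bases before the start in Prtn3, 85 in Elane, 75 in Ltf and 216 in Lcn2. The Prtn3 window lies inside the gene span given above. That span is from GENCODE, whereas the start is from RefSeq.

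Secondary granule genes and products of mature neutrophils followed. Ltf, the iron-binding lactoferrin, stood at 2526, 2711 and 2274 in controls and 5603, 11275, 7152, 6480.0 and 6440.0 after 10 defeats (1.52 ± 0.25), and Lcn2, which binds bacterial siderophores, rose by 1.41 ± 0.24. D6 was the highest library for both genes. Among 16 mature neutrophil genes 14 rose and none fell, with a median of 1.15: Cxcr2, the chemokine receptor for release into blood, rose by 1.28 ± 0.24, and Ly6g, the neutrophil surface marker, by 1.30 ± 0.20. The receptor for granulocyte colony-stimulating factor, Csf3r, was not called at 0.34 ± 0.24, with values of 174, 187 and 174 in controls and 263, 163, 249, 172 and 316 after 10 defeats; D6 and D9 lay below every control and the other 3 libraries above. Of 7 genes of the NADPH oxidase, which makes superoxide, 6 rose (Cyba 1.06 ± 0.16), and of 10 Fc and Trem receptors 8 rose, among them Fcgr1 (1.27 ± 0.26) and Fcer1g (1.20 ± 0.17), the shared signalling chain.

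Secreted proteins of inflammation were among the largest rises. Of 12 acute phase and secreted genes 9 rose, with a median of 1.45. Wfdc17 is a small secreted protein of the whey acidic protein family (chromosome 11, 83703991 to 83706268). It was at 32.7, 31.6 and 30.8 in controls and 243, 454, 278, 385 and 259.8 after 10 defeats, a rise of 3.27 ± 0.41, and no library came near the controls. Lrg1, a leucine-rich glycoprotein of neutrophil granules, rose by 2.31 ± 0.33. Prok2, a chemokine-like prokineticin, was at 1.56, 0.886 and 1.84 in controls and spread from 7.64 in D5 to 73.3 in D6 (3.09 ± 0.63), so its size differed between libraries more than that of Wfdc17. Upp1, uridine phosphorylase, had the same pattern, 1.81, 2.36 and 2.71 in controls against 16.2, 55.8, 22.7, 27.4 and 17.2 (2.99 ± 0.45), and Dynlt5, a dynein light chain, rose by 2.15 ± 0.30 from control values of 0.252 to 0.511. Ifitm1, an interferon-induced membrane protein, rose by 2.67 ± 0.45. Saa3, an acute phase serum amyloid, was not called (1.69 ± 0.89): control C4 had 41.1 while C1 and C2 had 1.03 and 0.824, against 4.95, 54.2, 6.65, 47.5 and 12.1 after 10 defeats. Without C4 it was called (3.18). Of 8 stefin A family genes, intracellular protease inhibitors with near-identical copies that can share reads, 7 rose, with Stfa2 at 2.50 ± 0.43.

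**Figure D2:**
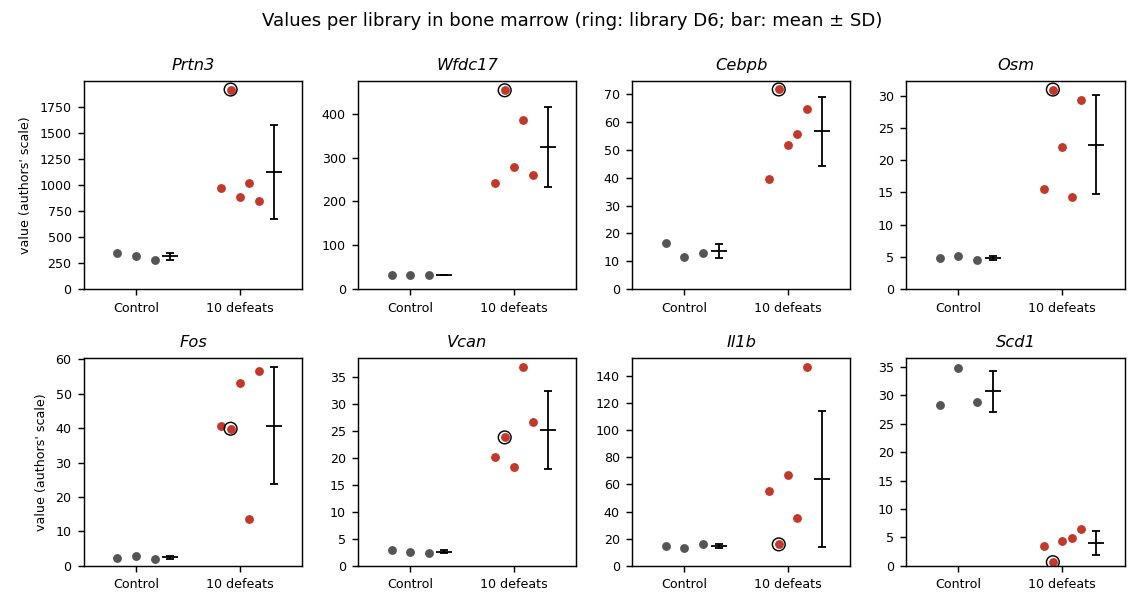
Values per library on the authors' scale for 8 genes in marrow controls (grey, n = 3) and after 10 defeats (red, n = 5), with mean ± SD; the ring marks library D6. The groups do not overlap except for Il1b, where D6 at 15.8 lies among the controls, and Scd1 is the one plotted gene that is lower.

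Regulators of granulocyte and monocyte fate moved in both directions. Of 12 such factors 7 rose and 2 fell. Cebpb, the C/EBP factor of emergency granulopoiesis, was at 16.5, 11.6 and 13.1 in controls and 39.5, 71.7, 51.7, 55.7 and 64.8 after 10 defeats, a rise of 1.95 ± 0.27 (adjusted p = 0.000125). Cebpe, needed for secondary granules, rose by 0.91 ± 0.20, its relative Cebpd by 1.17 ± 0.18, and Spi1, which encodes PU.1, by 0.92 ± 0.18. Irf8, which favours monocytes and dendritic cells over granulocytes, fell (-0.51 ± 0.12), from 86.3, 98.5 and 89.9 to 68.9, 49.5, 65.2, 67.9 and 71.7. Myb, needed by dividing progenitors, changed by -1.05 ± 0.10, from 56.4, 76.9 and 69.3 to 34.5, 32.1, 32.4, 29.1 and 30.9; the 5 libraries lay closer together than the controls. In this list 4 genes were called higher and 2 lower with equal totals, and 4 higher and 3 lower, with a median of -0.08 in place of 0.39, with equal totals without haemoglobin.

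Among cytokine genes, those of interleukin 6 type signals, which use the receptor chain gp130, gave 7 rises among 11 genes and 1 fall, of the kinase Jak2 (-0.36 ± 0.11), whose call ended without C4 (-0.28). Osm, oncostatin M, was at 4.73, 5.16 and 4.54 in controls and 15.5, 31, 22.1, 14.2 and 29.4 after 10 defeats (1.95 ± 0.24, adjusted p = 7.14e-05), and Socs3, the feedback inhibitor of this pathway, rose by 1.70 ± 0.27. In the interleukin 1 system 5 of 15 genes rose, and the signalling receptor Il1r1 fell (-0.61 ± 0.14). Il1b itself was at 14.4, 13.1 and 16.2 and 55.3, 15.8, 67, 34.9 and 146 (1.72 ± 0.49); D6 lay within the controls and D10 was the highest, and the call was lost in a fit of the 2 groups alone (adjusted p = 0.0595). The decoy receptor Il1r2 rose by 1.35 ± 0.35 with its highest value, 174, in D6, where Il1b was lowest. Pycard, the inflammasome adaptor, rose by 1.04 ± 0.15, and the inflammasome protease Casp4 by 1.18 ± 0.24. Of 13 genes for cytokines and NF-kB 2 rose and 2 fell, or 0 and 7 with equal totals without haemoglobin. The 2 and 2 do not exceed the 17.5% and 28.3% of all genes and show nothing particular to this list. The falls were Tnfaip3, which restrains NF-kB, and the NF-kB subunit Relb (-0.86 ± 0.15 and -0.66 ± 0.15), and the chemokine Ccl9 rose by 0.89 ± 0.17. The calls of Jak2 and Il1r1 ended with quantile normalization, and that of Ccl9 with equal totals without haemoglobin, under which 4 gp130 genes were called higher and 2 lower, and 4 genes of the interleukin 1 system each way. For the interleukin 1 system 8 were higher and none lower with quantile normalization, and 8 and 3 with library weights.

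Receptors for microbes also split. Of 18 Toll-like receptor genes and adaptors 9 rose and 2 fell: Tlr2, which senses lipoproteins, rose by 1.37 ± 0.21, Tlr4, which senses endotoxin, by 0.98 ± 0.20, and the adaptor Myd88 by 1.10 ± 0.17. Tlr9, the endosomal DNA sensor found in B cells and plasmacytoid dendritic cells, fell from 6.8, 8.68 and 8.47 to 3.23, 2.23, 3.4, 4.06 and 3.06 (-1.11 ± 0.17). Of 11 C-type lectin receptors 7 rose and none fell, with Clec4e, a sensor of mycobacterial glycolipid and dead cells, at 1.79 ± 0.27. Interferon-stimulated genes moved less: 4 of 21 rose (median 0.20), with Oas1a at 1.21 ± 0.26 and Zbp1 at 1.19 ± 0.22, which is close to the 17.5% of all genes. With equal totals without haemoglobin the counts of higher and lower genes were 5 and 5 for Toll-like receptors (median 0.07 in place of 0.44), 3 and 1 for lectins (0.14 in place of 0.61) and 2 and 2 for interferon-stimulated genes (-0.24).

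Fos, a subunit of the AP-1 transcription factor, had the largest rise of the genes named here. Its values were 2.42, 2.92 and 2.13 in controls and 40.6, 39.9, 53.2, 13.5 and 56.5 after 10 defeats, a rise of 3.44 ± 0.50 (adjusted p = 0.0002); D9 was the lowest and still above all controls. The other AP-1 subunits did not move alike. Junb rose by 1.59 ± 0.23 and Fosl2 by 0.89 ± 0.16, while Jun (-0.20 ± 0.14) and Jund (-0.53 ± 0.25) were not called, Jun at 3.05, 2.87 and 2.62 in controls and 1.6, 3.14, 1.88, 2.59 and 2.77 after 10 defeats. Without D10 Jund was called lower (-0.66). Ier2 and Ier3, further early response genes, rose by 1.00 ± 0.15 and 1.51 ± 0.20, and Myc, the growth regulator, fell (-0.73 ± 0.11), as did Dusp2, a nuclear phosphatase (-2.17 ± 0.39). Nr4a1, an early response gene that also marks patrolling monocytes, was not called (-0.25 ± 0.22). In all, 10 of 20 immediate early genes rose and 4 fell, or 5 and 9 with equal totals without haemoglobin.

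Classical monocyte genes rose with the granulocyte genes, and nonclassical ones did not as a set. Of 10 nonclassical monocyte genes 3 rose and 1 fell (median -0.12), or 2 and 6 with equal totals without haemoglobin. Of 13 classical monocyte genes 11 rose and none fell, with a median of 0.97. Vcan, the proteoglycan versican (chromosome 13, 89655312 to 89742509), was at 2.97, 2.64 and 2.32 in controls and 20.3, 23.9, 18.3, 36.9 and 26.8 after 10 defeats (2.81 ± 0.36). S100a4, a calcium-binding protein of motile cells, rose by 1.69 ± 0.16, from 154, 162 and 123 to 412, 352, 509, 571 and 545, and Ms4a6d, a membrane protein of monocytes and macrophages, by 2.57 ± 0.27. Csf1r, the receptor for macrophage colony-stimulating factor, was not called at 0.39 ± 0.17, but was without D6 (0.48). Resident macrophage genes went the other way: 12 of 16 fell and none rose (median -0.65), among them Mertk, which clears dying cells (-0.77 ± 0.18), and Maf, a factor of these cells (-0.67 ± 0.17), which quantile normalization left uncalled. That count rested on control C4, without which 2 of the 16 were called, and it was 6 with quantile normalization and 7 with median-ratio rescaling.

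Most dendritic cell genes fell. Of 11 conventional dendritic cell genes 8 fell and Sirpa, which other myeloid cells express too, rose (0.69 ± 0.16, or 0.21 and not called with equal totals without haemoglobin), and of 12 plasmacytoid ones 9 fell. These falls numbered 6 and 6 with quantile normalization and 5 and 6 with the stricter filter, which leaves out genes of low value. Shared genes were among the falls too: Irf4, Ccr7 and Spib, counted here, are named below with plasma, T and B cells. Siglech, the surface receptor that defines plasmacytoid cells, changed by -1.03 ± 0.21, Zbtb46, the conventional dendritic cell factor, by -0.86 ± 0.19 and Clec9a, a receptor for dead cells, by -0.73 ± 0.15. Eosinophil genes were called lower in 5 of 9 cases and none rose, with Ccr3, the eotaxin receptor, at -0.75 ± 0.16 and Il5ra, the interleukin 5 receptor, at -0.88 ± 0.21. Without C1 or C4 2 eosinophil genes were called, without D6 or D7 3, and without D9 8. Hdc, which makes histamine, rose from 54, 53 and 49.3 to 119, 162, 110.3, 129.7 and 125 (1.28 ± 0.19), while the basophil proteases Mcpt8 (0.19 ± 0.24) and Cpa3 (-0.24 ± 0.20) were not called.

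Most erythroid genes fell. Of 21 red cell membrane genes 17 fell, with a median of -1.03, of 13 haem synthesis and transport genes 11 fell, and of 11 erythroid regulators 9. The 1 haem gene that rose was the exporter Flvcr1 (0.68 ± 0.15), which lost its call with equal totals without haemoglobin. Aqp1, the water channel of red cells, was at 282, 236 and 274 in controls and 151, 33.2, 105, 75.1 and 77.3 after 10 defeats (-1.72 ± 0.34). Slc4a1, the anion exchanger band 3, changed by -1.03 ± 0.27 and Car1, a carbonic anhydrase, by -1.62 ± 0.31. D6 was lowest in each of these 3 genes. Gata1 and Klf1, which switch on the erythroid programme, changed by -1.02 ± 0.31 and -1.23 ± 0.33, and Epor, the erythropoietin receptor, by -1.49 ± 0.38. The median of the membrane genes was -2.06 in D6 and -0.97 to -0.55 in the other 4 libraries, relative to the control mean.

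The globin genes were less certain. Their list also holds a haemoglobin chaperone gene. All 6 genes of the list that were tested were called lower, with a median of -1.0. However, 1 was called without C1, 1 without C2, none without C4, 2 without D6, 2 without D9 and 2 with median-ratio rescaling. Alas2, the erythroid enzyme at the start of haem synthesis, was not called (-0.72 ± 0.36, adjusted p = 0.11) although its values of 1349, 1179 and 1099 and 731, 389.7, 1016, 715 and 1008 did not overlap; it was called lower with quantile normalization (-1.13). In contrast Alad, the next haem enzyme, was called at -1.25 ± 0.35. Without C1, 6 of the 11 haem synthesis genes were called. Of 19 megakaryocyte and platelet genes 7 fell and none rose, but none was called without C4, and Pf4, platelet factor 4, was not called (-0.56 ± 0.48).

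**Figure D3:**
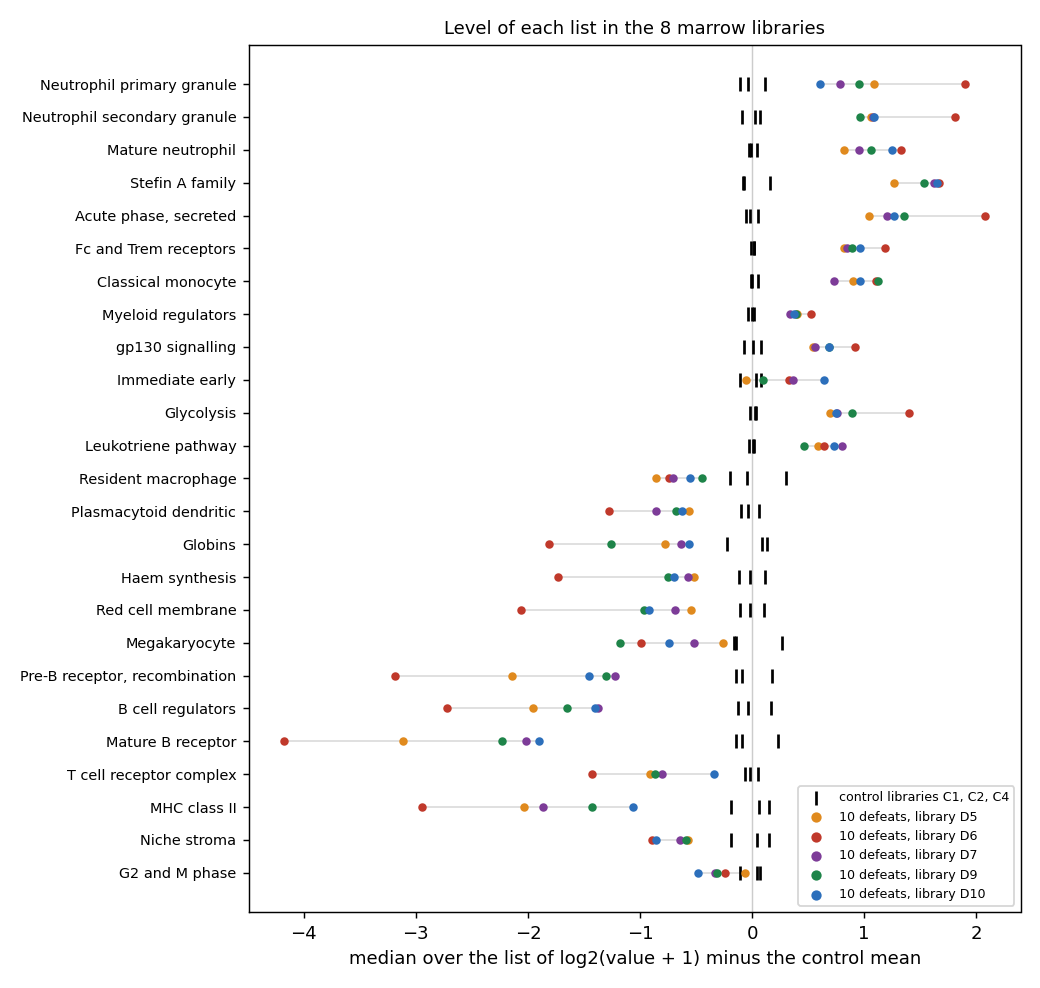
For 25 lists (rows), the median over the list of log2(value + 1) minus the control mean is shown for each control library (black ticks) and each library with 10 defeats (coloured points). Library D6 (red) lies farthest out in the granule, red cell and B cell lists, and the mature B receptor genes range from -4.18 in D6 to -1.90 in D10.

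Most B lineage genes fell, at each stage of maturation. Of 13 genes of the pre-B receptor and of recombination 10 fell, of 14 B cell regulators 12 fell and of 18 mature B receptor genes 15 fell, with medians of -1.88, -1.84 and -2.80. The 3 that rose, 1 of each list, were Xrcc4, which joins DNA ends in all cells (0.38 ± 0.14), Bcl6, which germinal centre B cells and other leukocytes express (0.63 ± 0.18), and Faim, an inhibitor of cell death (0.38 ± 0.14). These rises were small: Bcl6 lost its call with equal totals, Xrcc4 also without C1, C2, D6 or D9 (0.31 to 0.37) and Faim without C1, C4, D6, D7, D9 or D10 (0.29 to 0.37). Ebf1, which commits progenitors to the B lineage, was at 9.99, 12.8 and 11.4 in controls and 1.39, 0.184, 3.57, 3.01 and 3.5 after 10 defeats (-2.05 ± 0.41). Spib, a PU.1 relative of B cells and plasmacytoid cells, changed by -3.09 ± 0.55, Bach2, which holds B cells before plasma cell fate, by -2.43 ± 0.37, and Rag2 of the recombinase by -1.51 ± 0.28. Il7r, the interleukin 7 receptor, went from 19.1, 23 and 24.5 to 3.2, 0.651, 5.21, 5.79 and 5.27. In Il7r D6 was lowest and D5 next, and no library overlapped the controls. The groups did not overlap, downwards, in 16 of the 18 mature B receptor genes, against 29.8% of all genes.

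Antibody genes did not follow the B cell genes in equal measure. Ighd, the IgD constant gene of naive B cells, fell from 99.1, 121 and 94 to 10.4, 0.664, 11.9, 19.7 and 23.2 (-3.34 ± 0.76), and Ighm, for IgM, from 1019.5, 1192 and 1255 to 278, 845, 374, 572 and 415 (-1.32 ± 0.31). In D6 Ighd was lowest while Ighm was the highest of the 5. Igkc, the kappa light chain, was not called (-0.42 ± 0.33, or -0.83 and called with quantile normalization), with D6 at 2473 above every control. Igha, for IgA, was at 157, 142 and 134 in controls and higher in all 5 libraries, 295, 228, 283, 171 and 402, but did not pass the test (0.88 ± 0.36, adjusted p = 0.0549). It was called higher in 4 alternatives: without D9 (1.03), with median-ratio rescaling (0.99), in a fit of the 2 groups alone (0.88) and with library weights (0.96). Jchain, which joins secreted IgA and IgM, was not called (0.22 ± 0.27). Of 11 plasma cell genes 7 fell and 2 rose, with a median of -0.86. Irf4 (-1.98 ± 0.34), which drives plasma cell fate and is also in the conventional dendritic list, and Sdc1 (-0.94 ± 0.18), the surface marker, were among the falls. With the stricter filter 4 fell and 2 rose, with a median of -0.19. The sum over the list overlapped between groups, at 213 to 243 in controls and 174 to 288 after 10 defeats. Xbp1, a factor of secretory cells, rose by 0.61 ± 0.16 and lost its call with equal totals without haemoglobin. Of 103 heavy chain variable segments 32 were called lower and of 92 kappa segments 32, against 28.3% of all genes; reads of near-identical segments can be shared.

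**Figure D4:**
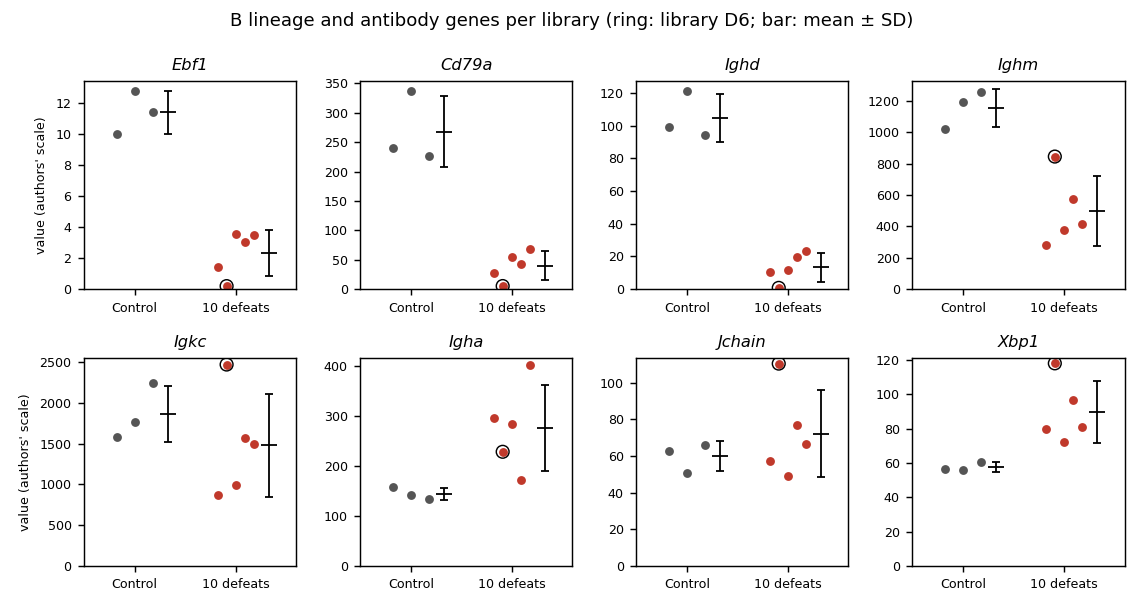
Values per library on the authors' scale for 8 genes of the B lineage and of antibodies in controls (grey, n = 3) and after 10 defeats (red, n = 5), with mean ± SD; the ring marks library D6. Ebf1, Cd79a, Ighd and Ighm are lower without overlap, Igkc and Jchain overlap, and Igha and Xbp1 lie above all controls.

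Most T cell genes fell too. Of 17 genes of the T cell receptor complex 14 fell and none rose, with a median of -0.95: Trac, the alpha chain constant gene, had 11.6, 11.3 and 15.5 in controls and 3.81, 3.29, 6.12, 6.52 and 8.63 after 10 defeats (-1.10 ± 0.27), and Cd8a changed by -1.04 ± 0.20. This count was 7 without C4 and 8 with quantile normalization. Tcf7, a factor of naive T cells, changed by -1.43 ± 0.24 and Ccr7, which guides them to lymph nodes, by -1.83 ± 0.33. Of 15 natural killer genes 7 fell, with the receptor Klrd1 at -1.06 ± 0.25, but 1 fell with quantile normalization, 2 without C1, 2 without C2, 3 without C4 and 3 without D6. Of 10 MHC class II genes 8 fell (median -1.90): Cd74, the invariant chain, had 808, 852 and 646 in controls and 156, 61.8, 208, 246 and 360.4 after 10 defeats, lowest in D6. Of 13 MHC class I genes none fell and 4 rose, with a median of 0.17; 1 was higher with quantile normalization, 1 without C4 and 2 without D10, and 6 were lower with equal totals without haemoglobin.

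Most niche stroma and endothelial genes fell, whereas of 10 osteoblast genes 2 fell and none rose (median -0.24). Of 10 niche stroma genes 9 fell, with a median of -0.73. This count was 5 with quantile normalization and 3 with the stricter filter, which leaves out genes of low value. Cxcl12, which retains stem cells, B precursors and neutrophils in marrow, was at 102, 63.5 and 94.6 in controls and 29.2, 16.2, 27, 36.4 and 31.2 after 10 defeats (-1.62 ± 0.45, adjusted p = 0.00954), without overlap, while Cxcr4, its receptor, was not called (-0.18 ± 0.11). Lepr, the leptin receptor that marks these stromal cells, and Adipoq, which they also express, changed by -1.0 ± 0.20 and -1.63 ± 0.37. Of 12 endothelial genes 9 fell and Ly6c1, which some leukocytes share, rose (0.62 ± 0.14, or 0.18 and not called with equal totals without haemoglobin), with Pecam1 at -0.95 ± 0.10 and Stab2, a sinusoid receptor, at -0.89 ± 0.19; 3 fell without C4 and 4 with quantile normalization. Of 14 stem and progenitor genes 7 fell and none rose (4 without C4), with Gata2 at -0.74 ± 0.17 and Sox4 at -1.62 ± 0.22. Markers of muscle and fat, which lie beside or within the bone, were also examined. Of 7 muscle genes 2 passed the filter and Mylpf, a myosin light chain, fell (-1.04 ± 0.26); their sum was 27.5 to 35.9 in controls and 11.8 to 19.3 after 10 defeats, with Myh4 at 0 in every control. Of 6 fat genes 2 passed, and 1 of these, Adipoq, fell; their sum was 6.47 to 8.90 in controls and 1.07 to 3.38 after 10 defeats. The part of either tissue in the niche result was not tested.

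Lipid mediator genes were followed because the series concerns them. Of 15 leukotriene pathway genes 8 rose and 2, Dpep1 (-0.84 ± 0.19) and Alox15, fell, with a median of 0.75. Alox5ap, which hands arachidonic acid to 5-lipoxygenase, had 489.6, 475 and 433 in controls and 1054, 1972, 1165, 1506 and 1258 after 10 defeats (1.54 ± 0.22), and D6 was the highest. Ltb4r1, the leukotriene B4 receptor, rose by 0.91 ± 0.19, and Ptgr1, which inactivates leukotriene B4, by 0.99 ± 0.18. Genes for later steps of the cysteinyl leukotrienes were also higher. They were Ggt1 (2.64 ± 0.50), which trims leukotriene C4, Dpep2 (1.35 ± 0.21), which trims the product of that step, and the receptor Cysltr1 (0.82 ± 0.15). Alox15, a lipoxygenase of eosinophils and macrophages, was at 33.3, 36.4 and 33.3 in controls and 14.4, 6.5, 9.37, 27.6 and 21.3 after 10 defeats (-1.23 ± 0.34), with D9 the highest of the 5, as for the eosinophil receptors Ccr3 and Il5ra.

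Of 11 genes of sphingosine phosphate receptors and metabolism 3 rose and 4 fell, against 17.5% and 28.3% of all genes. The sphingosine phosphate receptor of lymphocyte exit, S1pr1, was at 9.72, 11.4 and 9.46 in controls and 1.34, 0.728, 1.58, 2.22 and 2.38 after 10 defeats (-2.11 ± 0.26), whereas S1pr2 rose by 0.72 ± 0.16. Mfsd2b, the sphingosine phosphate exporter of red cells, changed by -1.56 ± 0.36, and Spns2, the exporter of endothelium, by -0.88 ± 0.20. Of 6 prostanoid receptors 1, the prostacyclin receptor Ptgir, rose (0.81 ± 0.17) and 1, the thromboxane receptor Tbxa2r, fell (-0.91 ± 0.22). These counts do not exceed the shares of all genes and show nothing particular to prostanoid receptors. Of 10 receptors for lipids and metabolites with resolving or regulatory roles 7 rose and 1 fell, with Ffar2 for short-chain fatty acids at 1.02 ± 0.20, Gpr84 for medium-chain fatty acids at 1.27 ± 0.28 and Gpr18 at -1.41 ± 0.28. With equal totals without haemoglobin 4 of these receptors were higher and 2 lower, and their median was 0.20 in place of 0.64; without C2 6 were higher and 2 lower. Of 9 prostaglandin synthesis genes Hpgds, a prostaglandin D synthase, fell (-0.78 ± 0.18). The 2 called higher were 0 without C2, C4 or D6 and with equal totals, and 1 without C1, D5, D7 or D9; with equal totals without haemoglobin 0 were higher and 4 lower.

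Genes that shape fatty acids and store lipid also differed. Scd1, which makes monounsaturated fatty acids, was at 28.3, 34.8 and 28.9 in controls and 3.56, 0.644, 4.39, 4.89 and 6.5 after 10 defeats (-2.82 ± 0.41), and 5 of 9 desaturase and elongase genes fell. Of that list 2 rose, or 1 without C1, C2, C4, D5, D6 or D10, with no filter and with each scaling other than median-ratio; 3 fell with the stricter filter. Of 15 phospholipase and phospholipid remodelling genes 5 rose and 5 fell (median -0.07), against 17.5% and 28.3% of all genes. In that list 1 rose and 8 fell with equal totals without haemoglobin. The membrane remodelling enzymes Lpcat3 (-0.74 ± 0.12) and Agpat3 (-1.37 ± 0.24) fell, and Pla2g7, which cleaves platelet activating factor, rose by 0.93 ± 0.21. Of 19 lipase, lipid droplet and efflux genes 8 rose and 4 fell (median 0.16), or 6 and 9 (-0.30) with equal totals without haemoglobin. Plin2, the coat protein of lipid droplets, rose by 1.56 ± 0.17, Dgat1, the last step of triglyceride synthesis, by 1.38 ± 0.20 and G0s2, an inhibitor of droplet lipase, by 1.44 ± 0.25. Abca1, the cholesterol exporter, changed by -1.04 ± 0.19. Lipg, endothelial lipase, had 0.577, 0.327 and 0.504 in controls and 3.4, 68.4, 3.72, 15.9 and 3.34 after 10 defeats (2.79 ± 0.79), a spread in which D6 was far above the rest. Of 21 cholesterol synthesis and uptake genes 8 rose, with the demethylation enzyme Msmo1 at 1.17 ± 0.24; 5 rose without C1, 4 without C4, 5 with equal totals and 2 with equal totals without haemoglobin.

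Genes tied to stress hormones were called in both directions. Of 16 glucocorticoid response genes 4 rose and 6 fell, against 17.5% and 28.3% of all genes. Mt1, a metallothionein, rose by 1.22 ± 0.18. Hsd11b1, which regenerates active corticosterone, rose by 1.32 ± 0.28, from 30.1, 29.2 and 29.7 to 66.8, 125, 77.3, 67.4 and 57.5. Zbtb16 and Pik3ip1, which glucocorticoids induce in many cells, changed by -0.67 ± 0.13 and -1.36 ± 0.18, and Fkbp5 was not called (-0.24 ± 0.25). The number of falls was 2 without C4 and 3 without C1, D6, D7 or D10, and with equal totals without haemoglobin 3 rose and 9 fell. Of 12 adrenergic and cAMP genes 2 rose and 5 fell, against 17.5% and 28.3% of all genes, with the phosphodiesterases Pde4b at -0.94 ± 0.20 and Pde7a at -1.12 ± 0.18. The 2 rises were 0 without C4 or with equal totals and 1 without C1, D6, D7, D9 or D10, with quantile normalization or with no filter, and the falls were 3 without C1 or C2; with equal totals without haemoglobin 0 rose and 9 fell. Of 15 clock genes 1 rose and 6 fell, or 4 and 2 with quantile normalization and 1 and 10 with equal totals without haemoglobin. Arntl, the core clock activator, changed by -1.32 ± 0.23 and Tef by -1.24 ± 0.25, while the repressor Nfil3 rose by 1.21 ± 0.19.

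Most glycolysis genes rose and many cell cycle genes fell. Of 20 glycolysis genes 17 rose and 2, Hk1 (-0.40 ± 0.11) and Pfkm (-1.06 ± 0.25), fell, with a median of 0.86; 11 rose with equal totals without haemoglobin. Hk2, hexokinase 2, was at 14.8, 16.7 and 12.9 in controls and 28.8, 56.7, 41.4, 40.5 and 50.1 after 10 defeats (1.46 ± 0.23), and Gapdh and Pkm rose by 1.15 ± 0.17 and 1.10 ± 0.17. Of 23 S phase genes 14 fell and of 23 G2 and M phase genes 11, with medians of -0.37 and -0.30; Uhrf1, which copies DNA methylation, changed by -0.58 ± 0.12 and Kif11, a spindle motor, by -0.48 ± 0.10. These counts were 8 and 5 with median-ratio rescaling, 9 and 6 without C1 or C4 and 22 and 22 with equal totals without haemoglobin. Of 15 glutathione genes 7 rose and 3 fell (1 fell without C1, C4 or D6, and 4 rose and 6 fell with equal totals without haemoglobin): Gclc, the limiting enzyme of synthesis, fell (-1.54 ± 0.23) while Mgst1 rose by 1.08 ± 0.20. Of 17 genes of the integrated stress response 5 rose, among them Atf5 (1.70 ± 0.31), Trib3 (1.5 ± 0.38) and Asns (0.92 ± 0.17), 1 fell and 11 were not called, with a median of 0.06; 4 rose and 2 fell without D9, and 4 rose and 4 fell with equal totals without haemoglobin. For ribosomal protein genes the direction followed the scaling: 38 of 77 rose and 1 fell, but 1 rose and 22 fell with quantile normalization, and 19 rose without C2 and 17 without C4.

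Against 4 defeats the differences were fewer. Of 12442 genes 304 were called (2.44%): 206 higher (1.66%) and 98 lower (0.788%) after 10 defeats. The 2 comparisons share the 5 libraries with 10 defeats, so their values are only set side by side. Mitochondrially encoded genes were higher than after 4 defeats in 11 of 13 cases, with a median of 0.79. That count was 1 with equal totals and 0 without D14 or in a fit of the 2 groups alone. Classical monocyte genes were higher than after 4 defeats in 7 of 13 cases, with a median of 0.95. Of these 13, 1 was called with equal totals and 1 in a fit of the 2 groups alone. S100a4 was at 199, 223 and 168 after 4 defeats, above every control and below every library with 10, and at 412, 352, 509, 571 and 545 after 10 (1.26 ± 0.16, adjusted p = 0.00275). Ccr2, the receptor by which monocytes leave marrow, had 53.3, 76 and 62.6 after 4 defeats and 111, 120.1, 145, 188 and 155 after 10 (1.15 ± 0.22), and Ms4a4a, a monocyte and macrophage membrane gene named after its value was seen, 7.86, 11.8 and 10.7 and 27.7, 34.6, 28.5, 58.8 and 47.7 (1.82 ± 0.20). No library with 10 defeats overlapped those with 4 in these 3 genes. None of 10 primary and 13 secondary granule genes was called between 4 and 10 defeats, with medians of -0.25 and 0.30, which is near the background share and shows nothing particular to them.

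Some eosinophil and cell cycle genes were lower than after 4 defeats. Of 9 eosinophil genes 3 were lower and none higher. Prg2, the eosinophil major basic protein, had 664, 374 and 646 in controls, 923, 548 and 695 after 4 defeats and 324, 147, 156, 504 and 322 after 10 (-1.43 ± 0.36, adjusted p = 0.0438), and Epx, eosinophil peroxidase, changed by -1.27 ± 0.31. Against control both were also called lower (-1.05 ± 0.36 and -1.06 ± 0.31), which ended without C1 (-0.91 and -0.91) and without C4 (-0.93 and -0.89), and for Prg2 also without D6 (-0.85), without D7 (-0.87) and in the fit of 2 groups (-1.05). Of 23 G2 and M phase genes 8 were lower and none higher: Cdk1, the mitotic kinase, was at 186, 176 and 193 after 4 defeats and 153, 135, 122, 125 and 108 after 10 (-0.53 ± 0.10), and Aurkb changed by -0.63 ± 0.14. Against control Cdk1 changed by -0.35 ± 0.10, a call that ended without C1 (-0.29) and with median-ratio rescaling. Myb was also lower than after 4 defeats (-0.40 ± 0.10). Mcpt8, a basophil protease, was at 102, 94.4 and 91.5 in controls, 72.8, 40.2 and 35.4 after 4 defeats and 127, 69.1, 105, 136 and 126 after 10 (1.20 ± 0.24), while 10 defeats against control was not called for it. These calls moved with single libraries: 304 genes became 8 without D14, 103 without D7, 110 without D10, 118 without D9, 165 without D11, 724 without D5 and 809 without D12, and 10 with equal totals. In a fit of the 2 groups alone 5 genes were called and none of the 9 named here kept its call. Without D14 2 monocyte genes and none of the eosinophil or G2 and M phase genes were called. No eosinophil gene was called without D11, D6, D7 or D10, and G2 and M phase calls numbered 3 without D11, 2 without D7, D9 or D10 and 15 without D5.

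**Figure D5:**
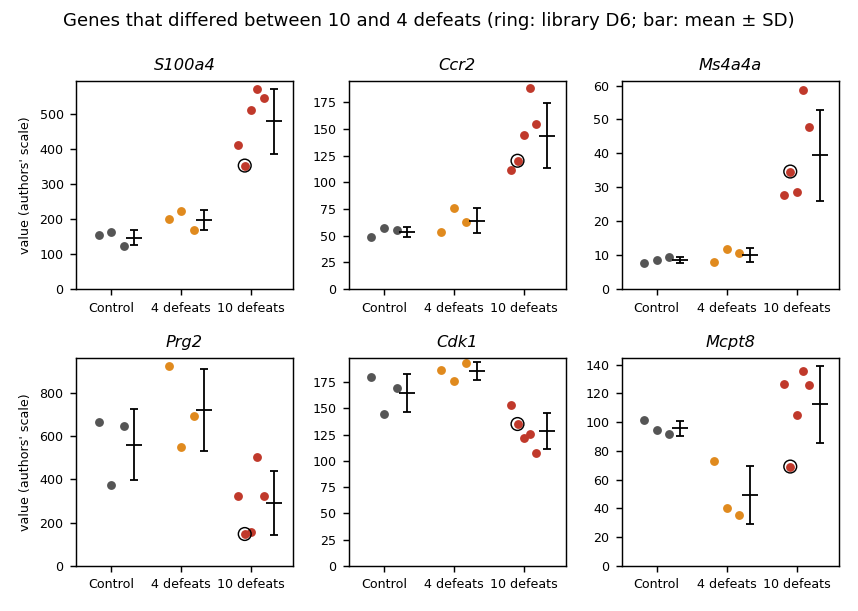
Values per library on the authors' scale for 6 genes in controls (grey, n = 3), after 4 defeats (orange, n = 3) and after 10 defeats (red, n = 5), with mean ± SD; the ring marks library D6. S100a4, Ccr2 and Ms4a4a are higher after 10 defeats than in both other groups, while Prg2 and Cdk1 are lower after 10 than after 4 defeats and Mcpt8 has its lowest mean after 4.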

How the data were processed

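Polyadenylated RNA of femoral marrow was sequenced from stranded libraries, per the labels' protocols; the submitters' processing notes name kallisto 0.46.1, sleuth and the build GRCm38, without their roles. The deposited table holds 1 normalized signal value per gene and library, made by the authors, with no unit stated in the sources; the values are not counts. Depth per library was inferred from the spacing of low values. Of 35885 genes, 12442 that reached 1 in 3 or more of the 19 marrow libraries were tested on log2(value + 1).

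limma 3.58.1 (R 4.3.3) was fitted to all 5 marrow groups, which share 1 estimate of spread with a trended, robust variance prior, and the Benjamini-Hochberg adjustment ran over all genes tested (threshold 0.05). The series text calls the samples biological replicates. In data simulated for this comparison on 12442 genes, 84% of genes changed by 1 and 96% of those changed by 2 (log2) were recovered, with 7 false calls. That simulation changed 200 genes under independent normal noise, with no shift in haemoglobin share and no library set apart as D6 was. It therefore cannot give the number of false calls in the real comparison, where 45.8% of genes were called. Alternatives were other scalings, pseudocounts, filters, library weights, a fit of only the groups compared and leaving out each library. Gene positions come from GENCODE M21 symbols matched by ID (99.3% of IDs) and promoters from RefSeq. The spleen is not analysed here, and a few genes are not reported here.

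The members and all 68 gene lists were chosen with earlier results of these data known. Named genes are the 12 largest rises and 12 largest falls whose groups did not overlap, listed key genes, and up to 3 genes with the smallest p in each list. Anxa1, Bcl6, Dpep1, Dusp2, Faim, Fcnb, Hk1, Il1r1, Jak2, Ms4a4a, Pfkm, Sirpa and Xrcc4 lie outside that rule and were chosen after their values were seen.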

Additional observations from a re-analysis of the deposited data

Results flagged for a closer look

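In 22 of the genes named, 1 of the 5 libraries with 10 defeats lay so far from its neighbours that the gap took more than 0.71 of the whole range of the group. Chance gives such a gap in about 1 of 20 groups, and over all 12442 genes it was found in 7.44%, most often in D6 (271 genes with D6 highest and 105 with D6 lowest).

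Library D6 was the far one for 17 of the named genes and the highest in 16 of them. Among neutrophil granule genes these were Prtn3 (1915), Elane (1552), Ltf (11275), Lcn2 (13433), Lrg1 (791) and Anxa1 (2303), and further Cyba (1296), Mgst1 (412) and Ifitm1 (957). Among metabolic and lipid genes they were Gapdh (2538), Pkm (899), Lipg (68.4), Ggt1 (49.9) and Upp1 (55.8), and 2 more were Prok2 (73.3) and Mt1 (151). Sox4, a progenitor factor, was lowest in D6 (1.28).

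D5 lay apart for Aurkb (72.4), Hk1 (61.9) and Faim (10.5), and D10 for Fosl2 (30.6) and Bcl6 (28.7).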

How the results depend on the processing

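Limits: the groups hold 3 and 5 libraries, the unit of the values is unknown and haemoglobin transcripts take a share that differs between the groups, so directions of genes near 0 depend on the scaling. No paired analysis was possible because the control and 10-defeat groups share no replicate number, nor do the 4- and 10-defeat groups.

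Against control, 2298 genes were lower with quantile normalization, 1352 higher with equal totals, and 605 higher and 7912 lower with equal totals without haemoglobin. Leaving out 1 library gave 3792 to 5782 calls, 1593 to 2202 higher and 2199 to 3580 lower, lowest without C4 (3792 and 2199). Against 4 defeats, the total, higher and lower calls were 10, 9 and 1 with equal totals, 93, 31 and 62 without haemoglobin, 99, 71 and 28 with no filter, 5, 2 and 3 in a fit of the 2 groups alone and 1498, 839 and 659 with library weights. Leaving out 1 library gave 8 (without D14) to 809 (without D12), 8 to 506 higher and 0 to 303 lower.

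Of the named calls against control, 142 of 160 held under each alternative run for them, of 17 in all; genes of low value had no stricter-filter value. Alas2, Cpa3, Cxcr4, Fkbp5, Igkc, Jun, Jund and Nr4a1, not called as reported, were called lower with equal totals without haemoglobin. With equal totals without haemoglobin the direction turned for Csf1r (-0.093), Csf3r (-0.15), Faim (-0.077), Jchain (-0.27), Mcpt8 (-0.29) and Xrcc4 (-0.019), and with quantile normalization for Jun (0.10) and Mcpt8 (-0.0003). The cause was not tested.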

Other observations

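Some genes outside these groups also differed between 10 defeats and control. Ephx1, which hydrolyses epoxides, stood at 9.87, 10.6 and 9.8 in controls and 2.08, 1.19, 2.25, 3.4 and 2.6 after 10 defeats (-1.78 ± 0.22), lowest in D6. Acp5, the tartrate-resistant acid phosphatase of osteoclasts and macrophages, had 81.5, 65.8 and 81.1 in controls and 35.6, 10.4, 21.3, 21.1 and 22.1 after 10 defeats (-1.83 ± 0.29), without overlap. Of the 5 osteoclast genes tested it was the only 1 called, and the median of that list was -0.09. Selplg, the selectin ligand with which leukocytes roll on vessel walls, rose by 0.77 ± 0.13. Its list of 11 neutrophil trafficking genes gave 5 higher and 2 lower (median 0.63), but 3 higher and 4 lower (0.28) with equal totals without haemoglobin.

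Mitochondrially encoded genes gave 9 rises among 13 against control, but none rose and 1 fell with quantile normalization, 5 rose with equal totals, and 1 rose with equal totals without haemoglobin.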
